A study of Homo sapiens with 12 samples.

Results

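The mitochondrial ribosomal protein genes were followed on 12 Illumina arrays of LNCaP cells transfected with either a miR-135b precursor or a scrambled control. They were taken as every gene whose current symbol in the platform annotation begins with MRPL or MRPS and a digit, which gave 80 symbols. Of these, 79 had a probe kept by the detection filter, out of 11238 genes with such a probe. Protein-coding genes made up 76 of the 79, with 48 large subunit and 28 small subunit symbols. Their probes were detected on all 12 arrays in 76 of 76 cases. The rest were the pseudogenes MRPL42P5 and MRPS31P5, detected on 4 and 3 arrays, and the antisense RNA MRPL20-AS1, while the antisense RNA MRPL23-AS1 had no kept probe. MRPL27 was not analysed here.

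LNCaP is an established prostate carcinoma line from a lymph node metastasis. Cells received either the pre-miR precursor of miR-135b or a scrambled negative control pre-miR, both at 20 nM, and RNA was taken 12, 24 or 36 h later. Each of the 6 combinations of precursor and time held 2 arrays, described by the submitters as biological repeats. All groups were transfected, so an untransfected state is not represented, and every value comes from a single line carrying a precursor added from outside. Detected probes numbered 15967 to 17856 on the arrays, whose small number limits the precision. The luminal markers KLK3, KLK2, TMPRSS2, FOLH1, HOXB13, KRT8 and KRT18 were detected on all 12 arrays. Of the markers of other cell types that had a probe, the basal KRT5 and KRT14 were detected on no array, and 1 of 5 fibroblast (COL1A1), 1 of 4 leukocyte (CD68) and 1 of 3 neuroendocrine (ENO2) markers were detected on all arrays. The summed luminal level ran from 12.4 to 13.1 on the log2 scale in treated arrays and from 12.45 to 13.01 in control arrays. Treated and control ranges also overlapped for COL1A1 (6.57 to 6.98 and 6.55 to 7.10), CD68 (7.83 to 8.91 and 7.93 to 8.75) and ENO2 (6.59 to 7.46 and 6.56 to 7.30).

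Mitochondria keep a ribosome of their own, which makes the few proteins encoded by mitochondrial DNA, all of them membrane subunits of the respiratory chain and of ATP synthase. Its RNAs come from the mitochondrial genome, but its proteins are encoded in the nucleus, made on cytosolic ribosomes and imported. The small subunit reads the message and the large subunit forms the peptide bond. Some of the proteins have counterparts in bacterial ribosomes and others are found only in mitochondria. MRPS18A and MRPS30 carry small subunit symbols although their proteins sit in the large subunit of the human particle.

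The 5p mature strand of miR-135b is given first, from RefSeq (GRCh38.p14, chr1:205448361-205448383, minus strand), because its seed, bases 2 to 8 in capitals, is what pairs with target messages. The 3' ends of the messages were not analysed here, so no statement is made on target sites among the members.
hsa-miR-135b-5p: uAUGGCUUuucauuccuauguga

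Averaged over the 3 times, 2 of the 79 genes with a kept probe were lower in miR-135b cells by limma's adjusted p under 0.05, MRPL16 and MRPS15, and none was higher. Over all genes tested 2.81% were called lower and 1.97% higher, so the share of 2 among 79 was close to the background. At an unadjusted p under 0.05, 15 members were lower, or 19%, against 9.02% of all genes, and none was higher, against 8.79%. Among the members 53 of 79 had a difference below 0, or 67.1%, against 48.9% of all genes. In bulk RNA of this kind, a change in the make-up of the culture and a change in the message per cell cannot be told apart.

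MRPL16 is the mitochondrial counterpart of bacterial L16, a large subunit protein close to the sites where transfer RNAs sit. Its normalized log2 intensity in miR-135b cells was 10.19 and 10.11 at 12 h, 9.999 and 9.983 at 24 h, and 9.72 and 9.58 at 36 h. In scrambled control cells it was 10.98 and 11.04 at 12 h, 10.96 and 10.98 at 24 h, and 11.17 and 10.99 at 36 h. The 6 treated arrays all lay below the 6 control arrays, and the treated arrays at 36 h were the lowest of the 12. The log2 difference was -0.86 ± 0.12 (SE, n = 2 arrays a group) at 12 h, with limma's adjusted p = 0.0653, and -0.98 ± 0.12 at 24 h, with adjusted p = 0.00911. At 36 h MRPL16 was 2.69-fold lower, with a log2 difference of -1.43 ± 0.12 and limma's adjusted p = 0.00122. Only 7 of the 11238 genes had a lower mean difference over the 3 times than its -1.09 ± 0.07. MRPL16 had 1 kept probe, so no second probe could be set beside it. The call at 24 h was lost when any of the 4 arrays of that time was left out. Calls over all genes at 24 h also became far fewer then. The difference stayed between -0.99 and -0.97, and the calls at 36 h and for the mean held in 12 of 12 such fits. In these fits a group left with 1 array is assumed to vary like the others.

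MRPS15 is the counterpart of bacterial S15, a small subunit protein whose bacterial form binds ribosomal RNA early in assembly. In miR-135b cells its log2 intensity was 11.98 and 11.94 at 12 h, 11.86 and 11.69 at 24 h, and 11.44 and 11.27 at 36 h. In control cells it was 12.17 and 12.18, then 12.24 and 12.11, then 12.11 and 12.16. Again the 6 treated arrays lay below all 6 control arrays, with the widest gap at 36 h. The log2 difference was -0.21 ± 0.12 at 12 h, -0.39 ± 0.12 at 24 h and -0.78 ± 0.12 at 36 h, or 1.72-fold lower at the last. Limma's adjusted p was 0.9998, 0.232 and 0.0193 in the same order, and 0.00611 for the mean of -0.46 ± 0.07. MRPS15, like MRPL16, had only 1 kept probe. The call at 36 h was lost when any of the 4 arrays of that time was left out, with differences between -0.87 and -0.70. Calls over all genes at 36 h also became far fewer then. The call for the mean held in 12 of 12 such fits.

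Called members at the single times were few. At 12 h none of the 79 was called, where 0.0267% of all genes were called lower and 0.0089% higher by limma's adjusted p. At an unadjusted p under 0.05, 1 member was lower there, against 2.75% of all genes, and none was higher, against 2.22%. Only 1 of the 79, MRPL16, was lower at 24 h, against 0.489% of all genes, and none was higher, against 0.32%. At an unadjusted p under 0.05 these counts were 7, against 5.86%, and 0, against 5.11%. At 36 h MRPL16 and MRPS15 were lower, against 0.89%, and none was higher, against 0.872%. At an unadjusted p under 0.05 these counts were 7, against 7.25%, and 0, against 6.39%. Differences below 0 were seen in 50 of 79 members at 12 h, 54 at 24 h and 57 at 36 h, against 51.7%, 48.7% and 48.1% of all genes. With the arrays paired by repeat number within each time, the members called were the same, none at 12 h, MRPL16 at 24 h, and MRPL16 and MRPS15 at 36 h. The pairing called 0.0356%, 1.54% and 3.14% of all genes lower at the 3 times and 0.0089%, 1.17% and 2.57% higher.

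Whether the effect itself changed between times was tested as the difference at 36 h minus that at 12 h. This was -0.56 ± 0.17 for MRPL16 (unadjusted p = 0.00796) and -0.57 ± 0.18 for MRPS15 (unadjusted p = 0.00890), and limma's adjusted p was 0.803 for both. No gene of the 11238 passed the adjusted threshold in this contrast, and at an unadjusted p under 0.05 the members counted 2 lower and 0 higher, against 2.67% and 2.72% of all genes. Below 0 were 51 of 79 members, against 48.1% of all genes. The moderated F test over the 3 times called none either, with 2 members and 4.02% of all genes at an unadjusted p under 0.05.

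**Figure D1:**
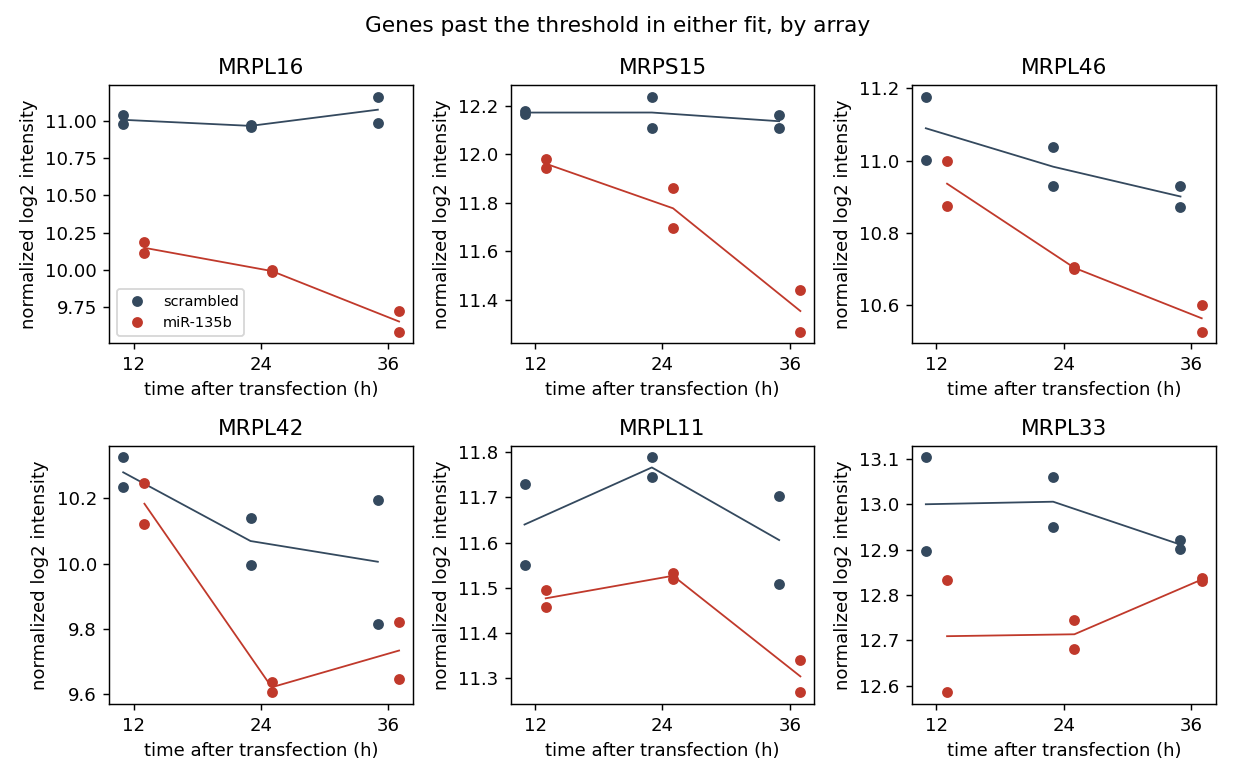
Normalized log2 intensity (vertical axis, scaled separately in each panel) against hours after transfection for MRPL16, MRPS15, MRPL46, MRPL42, MRPL11 and MRPL33. Points are single arrays, blue for scrambled and red for miR-135b, and lines join the means of 2 arrays. The 6 treated points lie below the 6 control points for MRPL16, MRPS15 and MRPL33, while the colours meet at 12 h for MRPL42.

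The upstream sequences of both called genes are shown because their 5' ends are where regulators of this gene family are known to bind. Each window is RefSeq sequence of GRCh38.p14 with 170 bases before the annotated start and 30 after it, and capitals mark the ETS-family motif defined further below. MRPL16 lies at chr11:59810749-59810948 on the minus strand and MRPS15 at chr1:36464355-36464554, also on the minus strand.
MRPL16: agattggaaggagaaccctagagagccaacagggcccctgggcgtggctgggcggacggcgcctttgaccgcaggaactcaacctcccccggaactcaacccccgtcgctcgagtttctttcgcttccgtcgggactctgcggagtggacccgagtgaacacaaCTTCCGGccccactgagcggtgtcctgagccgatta
MRPS15: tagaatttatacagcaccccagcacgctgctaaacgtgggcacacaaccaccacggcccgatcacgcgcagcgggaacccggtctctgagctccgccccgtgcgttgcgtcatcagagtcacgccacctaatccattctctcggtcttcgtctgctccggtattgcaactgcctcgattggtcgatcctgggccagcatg
The MRPL16 window holds the motif, read here on the opposite strand, and the MRPS15 window holds none of the motifs searched. No binding was measured in these samples.

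With the arrays paired by repeat number, 6 members were lower in the mean of 3 times, or 7.59% against 6.52% of all genes. None was higher, against 5.09%, and the share called lower was close to the background. The 4 genes added by the pairing were MRPL42, MRPL46, MRPL11 and MRPL33. All carry large subunit symbols, as do 48 of the 76 protein-coding members. MRPL46, a protein of the large subunit with no bacterial counterpart, stood at 10.999 and 10.874 at 12 h, 10.70 and 10.71 at 24 h, and 10.53 and 10.60 at 36 h in treated cells. Control arrays held 11.177 and 11.002, then 11.04 and 10.93, then 10.87 and 10.93. Treated arrays lay below control arrays at each time, although the treated array of repeat 1 at 12 h exceeded 3 of the 4 later control arrays. Its mean difference was -0.26 ± 0.07, with limma's adjusted p = 0.0740 unpaired and 0.0306 paired, from 1 kept probe.

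MRPL33, the counterpart of bacterial L33, stood at 12.83 and 12.59, then 12.68 and 12.75, then 12.83 and 12.84 in treated cells at 12, 24 and 36 h. Its control arrays held 13.10 and 12.90, then 12.95 and 13.06, then 12.92 and 12.90. All 6 treated arrays lay below all 6 control arrays, and the difference between group means was smallest at 36 h. The mean difference was -0.22 ± 0.08, with limma's adjusted p = 0.157 unpaired and 0.0460 paired.

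MRPL11, which forms the base of the stalk where translation factors dock, stood at 11.50 and 11.46, 11.53 and 11.52, and 11.27 and 11.34 in treated cells. Its control arrays held 11.73 and 11.55, 11.79 and 11.74, and 11.51 and 11.70. Treated arrays lay below control arrays at each time but overlapped across times. The mean difference was -0.23 ± 0.07, with limma's adjusted p = 0.107 unpaired and 0.0457 paired.

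MRPL42, found only in mitochondrial ribosomes, stood at 10.25 and 10.12, 9.64 and 9.61, and 9.82 and 9.65 in treated cells. Its control arrays held 10.23 and 10.33, 9.997 and 10.141, and 10.20 and 9.82. The groups overlapped at 12 h and at 36 h and were apart at 24 h. The mean difference was -0.27 ± 0.09, with limma's adjusted p = 0.125 unpaired and 0.0438 paired. A second, dimmer probe of MRPL42 gave -0.51 ± 0.09, with limma's adjusted p = 0.0203 over probes.

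Over arrays, 3 of 79 members had all treated values below all control values, or 3.8% against 1.86% of all genes, and none had them all above, against 1.15%. Within each time separately, the treated arrays lay below the control arrays for 7 members, MRPL11, MRPL16, MRPL33, MRPL46, MRPL58, MRPS15 and MRPS23, or 8.86% against 3.9%, and above for none, against 3.2%. MRPL58, a peptidyl-tRNA hydrolase built into the large subunit, had a mean difference of -0.15 ± 0.07 with limma's adjusted p = 0.286.

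Most members differed little. The mean difference lay within 0.2 of 0 for 66 of the 76 protein-coding genes, or 86.8% against 75.7% of all genes, and within 0.3 for 74. The 95% interval of the difference stayed within 0.5 of 0 for 74 of the 76. After MRPL16, MRPS15 and MRPL42 the lowest values were -0.27 ± 0.09 for MRPL39, a large subunit protein related to threonyl-tRNA synthetase, and -0.26 ± 0.07 for MRPL46. Without the miR-135b array of repeat 1 at 36 h, MRPL39 stood at -0.34 with limma's adjusted p = 0.0451, against 0.142 with all arrays.

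At the upper end were MRPL57 at 0.15 ± 0.10, MRPS24, the counterpart of bacterial S3, at 0.14 ± 0.08, and MRPL44, which has an RNase III-like fold, at 0.12 ± 0.08. MRPS21 at 0.11 ± 0.06 and MRPL52 at 0.10 ± 0.11 completed the highest 5 protein-coding genes. None of these passed, with limma's adjusted p of 0.402 or more. MRPS18A had a mean difference of -0.11 ± 0.09 and MRPS30 of -0.038 ± 0.11. The pseudogene MRPL42P5 had 0.21 ± 0.18, MRPS31P5 had 0.10 ± 0.17 and the antisense RNA MRPL20-AS1 had -0.13 ± 0.10, none past the threshold. At single times MRPL42P5, detected on 4 arrays, had 0.28 ± 0.32 at 12 h and 0.52 ± 0.32 at 36 h, above every protein-coding member.

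**Figure D2:**
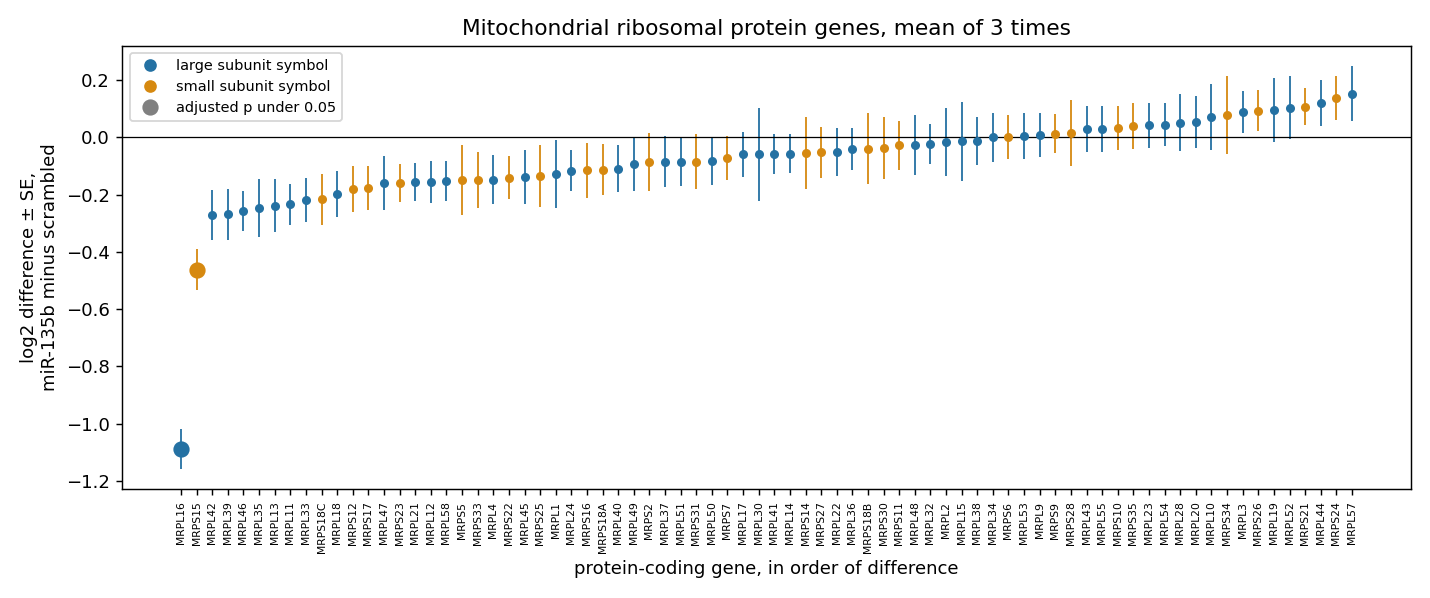
Log2 difference, miR-135b minus scrambled, mean of 3 times (vertical axis) for the 76 protein-coding genes in order of difference (horizontal axis), with bars of 1 SE. Blue marks large and orange small subunit symbols, and large points have limma's adjusted p under 0.05. MRPL16 at -1.09 and MRPS15 at -0.46 stand below the rest, which run from -0.27 to 0.15.

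Among the protein-coding genes the extremes at each time were mostly different ones. At 12 h the lowest after MRPL16 were MRPL33 at -0.29 ± 0.13 and MRPL4, which lines the exit tunnel, at -0.25 ± 0.15, and the highest were MRPL19 at 0.26 ± 0.20, MRPL44 at 0.19 ± 0.14 and MRPS9 at 0.17 ± 0.12. At 24 h the lowest after MRPL16 were MRPL42 at -0.45 ± 0.15 and MRPS17 at -0.42 ± 0.13, and the highest were MRPS34 at 0.28 ± 0.24, MRPL3 at 0.24 ± 0.13 and MRPL57 at 0.22 ± 0.17. At 36 h MRPL39 at -0.40 ± 0.16 followed MRPL16 and MRPS15, and the highest were MRPL48 at 0.22 ± 0.18, MRPS21 at 0.18 ± 0.11 and MRPL10, which carries the stalk, at 0.18 ± 0.20. Apart from MRPL16 and MRPS15 none of these passed the threshold at its time, with limma's adjusted p of 0.237 or more.

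The large and the small subunit were then compared over both treatments and the 3 times. In the mean of 3 times the median log2 difference was -0.0585 over the 48 large and -0.0639 over the 28 small subunit genes, against 0.0036 over all genes. Below 0 were 33 of 48 and 19 of 28. Leaving out MRPL16 gave -0.0579 for the large and leaving out MRPS15 gave -0.0542 for the small subunit. Placing MRPS18A and MRPS30 with the large subunit, where their proteins sit, kept these medians at -0.0585 and -0.0639.

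The large subunit genes had medians of -0.0425, -0.11 and -0.0543 at the successive times, and the small subunit genes of -0.0296, -0.0427 and -0.12. The large minus small difference was thus -0.0656 at 24 h and 0.0614 at 36 h. Single arrays of a group differed by more than this at 24 h, where the large minus small median deviation was -0.0708 and 0.0305 in the treated repeats. Without the miR-135b array of repeat 1 the 24 h value was 0.0098, and without that of repeat 2 at 36 h the 36 h value was 0.0033. With arrays left out in turn, the difference took both signs at 12 and 24 h and stayed above 0 at 36 h, from 0.0033 to 0.0768. Placing MRPS18A and MRPS30 with the large subunit gave 36 h medians of -0.0661 for the large and -0.0995 for the small subunit. These lie closer together than the -0.0543 and -0.12 by symbol. Scaling arrays to a shared median in place of quantile normalization turned the small subunit median at 24 h to 0.0455, where the median over all genes was 0.0864.

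**Figure D3:**
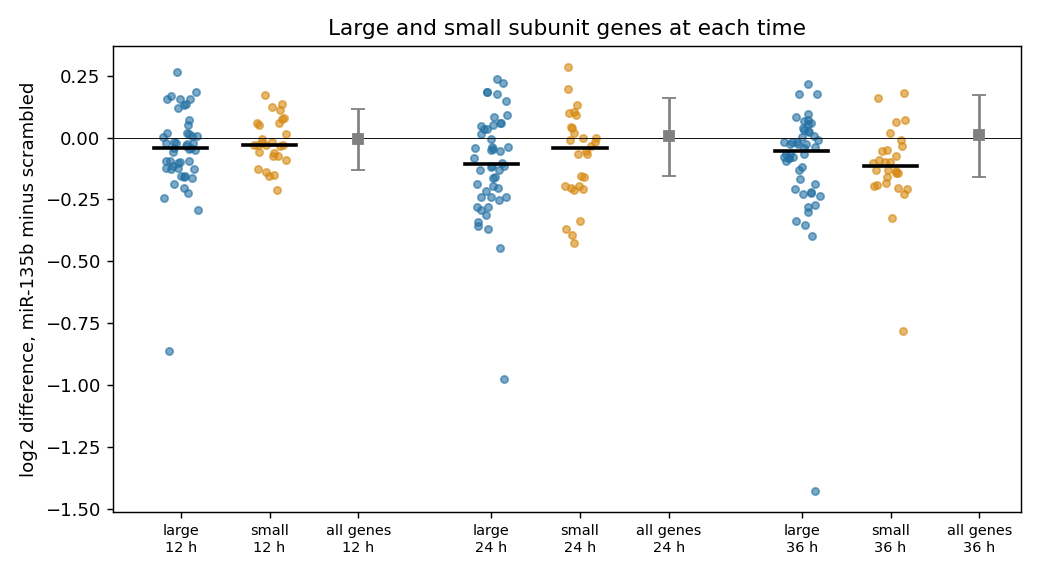
Log2 difference, miR-135b minus scrambled (vertical axis), at 12, 24 and 36 h for each large subunit gene (blue) and small subunit gene (orange), with a black bar at the median. Grey squares and bars give the median and the quartiles of all 11238 genes. Medians of both subunits lie between -0.12 and -0.0296, and the lowest points are MRPL16 at each time and MRPS15 at 36 h.

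With time after transfection, the members' signals ran lower in both arms. Each gene was set against its own mean of 12 arrays, and the median over the large subunit was 0.0962 and 0.12 in control arrays at 12 h, 0.0670 and -0.0033 at 24 h, and -0.0082 and -0.0252 at 36 h. In miR-135b arrays it was 0.0819 and 0.0295, then -0.0573 and -0.0339, then -0.0906 and -0.13. The treated arrays at 36 h were the lowest of the 12, and in each arm both 12 h arrays lay above both 36 h arrays. The small subunit gave 0.0545 and 0.0840 in control arrays at 12 h and -0.0042 and -0.0562 at 36 h, and 0.0947 and 0.0105 against -0.0651 and -0.11 in treated arrays. The pooled SD between repeats was 0.0292 for the large and 0.0437 for the small subunit.

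Between 12 and 36 h the median change in control cells was -0.11 for the large and -0.0966 for the small subunit, against -0.0122 over all genes. In miR-135b cells it was -0.18 and -0.19, against 0.0030. No member passed limma's adjusted threshold in either arm, where 0.0178% of all genes were called lower and 0% higher in control cells, and 0.587% lower and 0.667% higher in treated cells. At an unadjusted p under 0.05, 7 members were lower in control cells, or 8.86% against 7.2% of all genes, and 14 in treated cells, or 17.7% against 8.82%. None was higher in either, against 6.34% and 8.45% of all genes. Below 0 were 59 of 79 members in control and 64 in treated cells, against 51.9% and 49.7% of all genes. The lowest in control cells were MRPL2 at -0.64 ± 0.20, MRPL4 at -0.48 ± 0.15 and MRPL55 at -0.45 ± 0.14, with limma's adjusted p of 0.242 or more. In treated cells MRPS15 had -0.61 ± 0.12 with limma's adjusted p = 0.0510, MRPL18 had -0.54 ± 0.14 with 0.0950, and MRPL16 had -0.50 ± 0.12 with 0.0825. Without background correction, and in the authors' processed values, MRPL16, MRPL18, MRPL58 and MRPS15 passed here. Calls over all 11238 genes, in both directions, also numbered 278 and 290 in these settings, against 141. The genes of the control and treated time courses named here were picked for their place in the order after their values were seen.

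**Figure D4:**
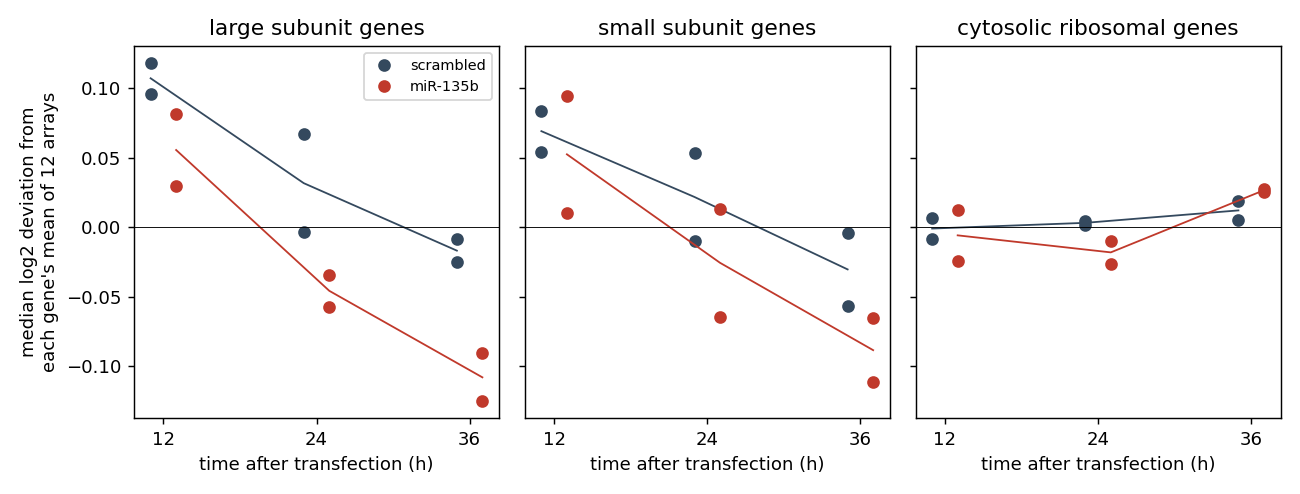
Median log2 deviation from each gene's mean of 12 arrays (vertical axis) against hours after transfection for large subunit, small subunit and cytosolic ribosomal genes, with 1 point per array (blue scrambled, red miR-135b) and lines through the means of 2. Large subunit medians run from 0.12 in a control array at 12 h to -0.13 in a treated array at 36 h, while the cytosolic ribosomal medians stay between -0.0261 and 0.0278.

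Across the 12 arrays the median pairwise correlation was 0.21 among large subunit genes, 0.18 among small subunit genes and 0.22 between the subunits. Cytosolic ribosomal genes had 0.0309, subunits of oxidative phosphorylation 0.14 and all genes 0.0035. These values describe 12 arrays that differ in treatment and time and were normalized together, and differences between groups were not removed. Cytosolic ribosomal probes were bright, up to a mean log2 intensity of 14.9 for RPL41, and whether this narrows their spread was not tested. Set against the median of the other members, MRPL58 and MRPL17 had r = 0.92 and MRPL12, a stalk protein, had 0.91, while MRPL44 had -0.47 and MRPS21 had -0.64.

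By place and origin, the 46 genes listed with a bacterial counterpart had a median difference of -0.0580 in the mean of 3 times. The 28 listed as mitochondria-specific had -0.0697, and MRPL55 and MRPL58 were placed in neither list. A group of 6 genes around the polypeptide exit tunnel had a median of -0.0877, the 3 of the stalk and its base -0.15, and the 6 of the central protuberance -0.0678. The tunnel group did not hold MRPL4, which had -0.15. None of the tunnel genes passed in either fit, and MRPL11 of the stalk and MRPL46 of the protuberance passed with pairing. These 3 structural groups were drawn up after the values had been seen.

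Of the 76 genes 23 had more than 1 kept probe, and the probes of a gene differed by a median of 0.0759 in the mean difference. The gap was at most 0.1 for 14 of the 23. The widest, 0.39, was in MRPL43, whose dim probe, detected on 5 arrays, gave 0.42 ± 0.09 and passed as higher with limma's adjusted p = 0.0476 over probes, while the brightest probe, which stands for MRPL43 in the counts, gave 0.028 ± 0.08.

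Related genes of the mitochondrial system gave the surroundings of these values. Of 6 further proteins of the mitochondrial ribosome listed under other symbols, 4 were measured and none passed. Their median was 0.0296 in the mean of 3 times, with 1 of the 4 below 0. None of 26 measured assembly factors of the mitochondrial ribosome and none of 15 mitochondrial translation factors passed in the mean of 3 times, with medians of -0.0221 and -0.0334. Paired, the assembly factors GTPBP10, at -0.25 ± 0.09, and YBEY, at 0.30 ± 0.08, passed with limma's adjusted p of 0.0481 and 0.0252. None of 74 cytosolic ribosomal genes passed, with a median of -0.0061, and with pairing RPS7 was lower and RPL22L1 higher, with limma's adjusted p of 0.0405 and 0.0277. None of 71 subunits of oxidative phosphorylation passed either, although 80.3% had a difference below 0, against 48.9% of all genes, and the median was -0.0879. With pairing, 5 of the 71 were lower and none was higher. Over all genes the pairing called 6.52% lower and 5.09% higher, and the unpaired fit called 2.81% lower and 1.97% higher.

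Of 20 mitochondrial aminoacyl-tRNA synthetases, 1 was lower, against 2.81% of all genes. This was LARS2, which charges the mitochondrial leucine tRNA. Its log2 intensity was 8.60 and 8.49, 8.24 and 8.41, and 7.92 and 8.28 in treated cells, and 8.77 and 8.78, 9.18 and 9.10, and 8.83 and 8.98 in control cells. All treated arrays lay below all control arrays, as for 1.86% of all genes. The mean difference was -0.62 ± 0.08 with limma's adjusted p = 0.00338. The median of the synthetases was -0.0499.

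Of 19 genes of mitochondrial DNA and RNA handling, 1 was lower, against 2.81% of all genes. This was LRPPRC, which binds and stabilizes mitochondrial messenger RNAs. It stood at 9.27 and 9.10, 8.81 and 8.88, and 8.64 and 9.10 in treated cells, and at 9.64 and 9.45, 9.53 and 9.57, and 9.47 and 9.73 in control cells. The groups did not overlap, with treated below control, as for 1.86% of all genes. The mean difference was -0.60 ± 0.10 with limma's adjusted p = 0.00820. The list's median was -0.0697.

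Of 9 measured regulators of mitochondrial biogenesis, 1 was lower, against 2.81% of all genes. This was ESRRA, an orphan nuclear receptor that drives many mitochondrial genes together with PGC-1 coactivators. It stood at 9.07 and 9.28, 8.62 and 9.15, and 8.63 and 9.21 in treated cells, and at 10.06 and 10.08, 9.78 and 10.02, and 10.06 and 10.20 in control cells. The lowest control array lay above the highest treated array, as for 1.86% of all genes. The mean difference was -1.04 ± 0.13 with limma's adjusted p = 0.00188. The list's median was -0.0647, and whether the level of ESRRA bears on the members was not tested.

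**Figure D5:**
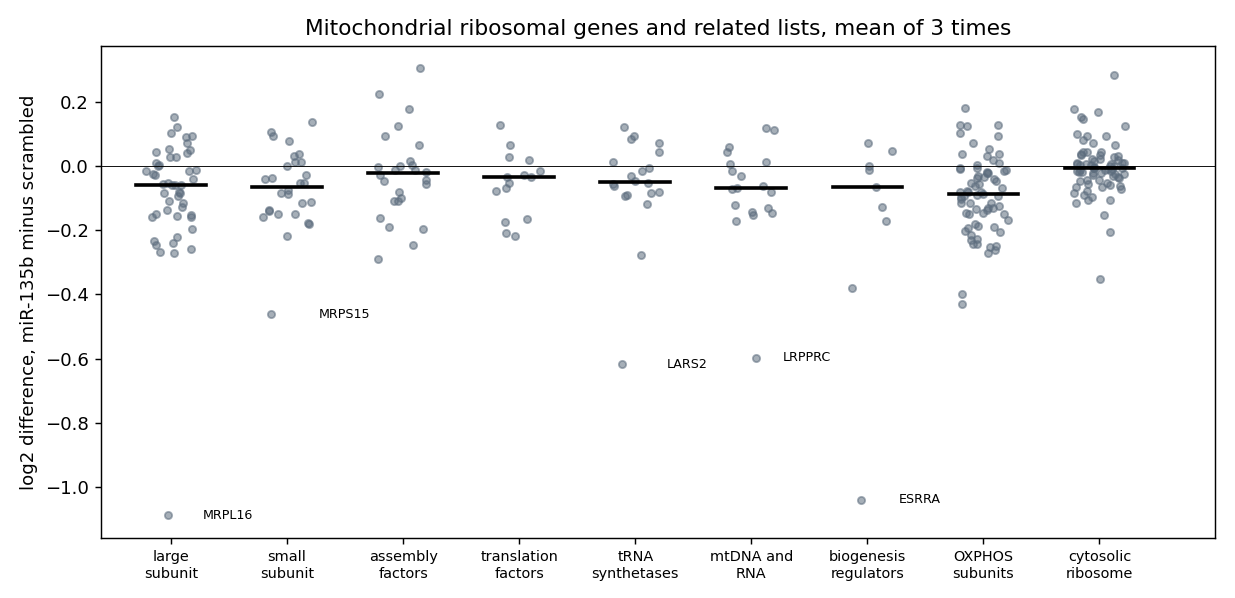
Log2 difference, miR-135b minus scrambled, mean of 3 times (vertical axis) for each gene of the large and small subunits and of related lists, with a black bar at each list's median. The medians of the lists drawn run from -0.0879 for oxidative phosphorylation to -0.0061 for the cytosolic ribosome. Named points are the genes with limma's adjusted p under 0.05. The 4 mitochondrial ribosomal proteins with other symbols, with a median of 0.0296, are not drawn.

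The promoters of the members were searched for motifs of factors known from human cells to bind mitochondrial genes. RefSeq windows of 250 bases before to 50 after the start matched 68 of the 76 genes, with the first listed window used per gene. On either strand, the ETS motif CCGGAAG was present in 28 of 68, or 41.2%, against 19.5% of 9097 tested genes with a window and 10.7% of all 27305 windows. The YY1 motif AANATGGCG was present in 18, or 26.5%, against 7.11% and 3.37%. The NRF1 motif, GCGC and TGCGC with 1 base of any kind between them, was present in 8, or 11.8%, against 12.4% and 6.28%. Overlap between motifs was allowed, and 8 genes held 2 of the motifs while 22 held none. Genes with the ETS motif had a median difference of -0.0718 in the mean of 3 times and those without it -0.0587. The order was the other way for YY1, at -0.0393 with and -0.0845 without, and for NRF1, at -0.0580 and -0.0776, with no test made between them.

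Some members start close to a neighbouring gene read in the other direction. A protein-coding gene on the opposite strand started within 1000 bases for 17 of 68 members, or 25%, against 14.6% of 8930 tested coding genes. Of 16 measured partners, 2 passed, where 2.81% of all genes were called lower and 1.97% higher. CYB5RL, beside MRPL37, was lower at -0.74 ± 0.13 with limma's adjusted p = 0.0123, and PIERCE1, beside MRPS2, was higher at 0.80 ± 0.08 with limma's adjusted p = 8.25e-04. MRPL37 had -0.0854 and MRPS2 had -0.0873, and neither member passed the threshold. MRPL46 and MRPS11 are partners of each other, with -0.26 and -0.0278.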

How the data were processed

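Total RNA of 12 LNCaP samples was hybridised to Illumina arrays. Per the file headers, the authors deposited non-normalized linear intensity for 47323 probes, and per the file headers each deposited intensity has its own detection p-value. Processed log2 values of these arrays, with nearly equal column medians, were deposited by the authors too. The submitters' processing notes name GenomeStudio 2010.2 and lumi 1.8.3, whose roles are not given in the sources used here.

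Intensities were corrected with limma 3.58.1 (normexp, negative controls inferred from the detection p-values, offset 16) in R 4.3.3, quantile normalized and put on the log2 scale. Probes with detection p under 0.01 on at least 2 of 12 arrays and 1 gene name were kept. A gene is represented by its probe of highest mean, and probe levels are not compared between genes. The offset shrinks differences of dim probes. A RefSeq gene table of GRCh38.p14 gave current symbols and neighbouring genes.

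Group means were fitted with lmFit and eBayes (6 residual degrees of freedom). Tests were two-sided, with Benjamini-Hochberg adjustment over 11238 genes and a threshold of 0.05. Errors are standard errors of the fit. The submitters call the repeats biological; p-values measure only the spread between these samples. The code was tested on simulated data.

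Deviations of treated and control arrays of the same repeat number and time correlated at r = 0.47, 0.46 and 0.58 at 12, 24 and 36 h, above the limit of 0.1, so the numbers were taken to pair them. The main fit, its standard errors and intervals, and the fits with arrays left out do not use this pairing. A fit with it (3 residual degrees of freedom) was an alternative, and its calls are given beside those of the main fit. The others were background correction, offset 50, median scaling, the authors' values, the detection filter, the mean of a gene's probes, an additive model, the placing of MRPS18A and MRPS30, and leaving out each array.

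The members and lists were chosen with earlier results of these data known. Members are named when past the threshold in any contrast or with pairing, among the 5 highest or lowest in the mean or the 3 highest or lowest at a time, and MRPS18A and MRPS30 always. Related lists name up to 4 genes past the threshold. Other genes were named after their values were seen.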

Additional observations from a re-analysis of the deposited data

How the results depend on the processing

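The number of arrays limits all values, and the calls of MRPL16 and MRPS15 in the mean of 3 times held under every alternative run. Called members in the mean numbered 6 with the replicate block. Calls over all 11238 genes, in both directions, then numbered 1305, against 537 in the main fit. At 12 h 1 member, MRPL16, was called without background correction, in the authors' processed values, with offset 50 and with detection required on all arrays. Calls over all genes there numbered 9, 9, 7 and 5 in the same order, against 4 in the main fit. For miR-135b cells at 36 h against 12 h, 4 were called without background correction and in the authors' values, and 1, MRPS15, with offset 50 or detection on all arrays. Calls over all genes in these settings numbered 278, 290, 214 and 212, against 141 in the main fit. Leaving out arrays gave 0 to 1 calls at 24 h and 1 to 2 at 36 h, and 0 called in either time course.

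Scaling to a shared median gave -0.0228 for the large and 0.0455 for the small subunit median at 24 h, with 0.0864 over all genes. There the median of all genes shifted by -0.10 in control cells from 12 to 24 h and by 0.11 from 24 to 36 h. The mean of each gene's probes gave a large minus small difference of -0.0279 at 24 h. With arrays left out, the large subunit median ran from -0.0730 to -0.0333 at 12 h, -0.13 to -0.0539 at 24 h and -0.0840 to -0.0536 at 36 h. The small subunit median ran from -0.0811 to 0.0193, -0.0930 to -4e-04 and -0.16 to -0.0569. The large minus small difference ran from -0.0578 to 0.0081, -0.0826 to 0.0098 and 0.0033 to 0.0768. Among single genes, MRPL46 passed without background correction (adjusted p = 0.0375) and in the authors' values (0.0386), and MRPL42 with the mean of its probes (0.0231). MRPL11, MRPL33, MRPL42 and MRPL46 passed with the replicate block, and no direction of a called gene reversed. The cause of these shifts was not tested.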
